A study of Mus musculus with 2 samples.

Results

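The miR-30 family is a group of microRNA genes whose 5p products share a seed, the stretch at bases 2 to 8 through which a microRNA pairs with its target mRNAs. Its members were the rows of both count tables whose Ensembl identifier stands for Mir30a, Mir30b, Mir30c-1, Mir30c-2, Mir30d, Mir30e or Mir30f in the GENCODE annotation of the mouse assembly GRCm38. Of these 7 genes, 6 had a row, among 1973 microRNA genes in all, and the identifier of Mir30f had none, so its own level was not analysed here. All 6 held at least 10 sense counts in each library. The tables came from microRNA sequencing of neural tube, the embryonic forerunner of brain and spinal cord, taken from B6NCrl mouse embryos at 14.5 days. The 2 libraries formed 1 group without any treatment, transgene or other genotype. The pups came from different mothers, dam 1 for replicate 1 and dam 2 for replicate 2. The labels speak of a single neural tube per library and also of both sexes pooled, and these statements were not reconciled here.

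A microRNA gene is transcribed as a longer RNA that folds into a hairpin, from which a short duplex is cut. One strand of the duplex is loaded into an Argonaute protein and guides it to mRNAs that carry a match to the seed, which are then repressed. The 5p strand comes from the rising arm of the hairpin and the 3p strand from the falling arm. MiR-30 is found in many tissues of vertebrates and is known for roles in kidney development, in holding back epithelial-to-mesenchymal transition, and in autophagy through its target Beclin 1.

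The mature sequences show how close the members are to one another, which decides how well reads can be assigned to them. RefSeq sequences on GRCm38.p6 were matched for 5 of the 7 genes. Mir30b and Mir30d had no entry. The 5p sequences are written 5′ to 3′ with the seed in capitals.
miR-30a-5p: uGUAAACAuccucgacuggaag
miR-30e-5p: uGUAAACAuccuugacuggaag
miR-30c-5p: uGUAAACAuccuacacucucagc
These 3 sequences had the seed and their first 12 bases in common. Counted from 1 at the 5′ end, miR-30a-5p and miR-30e-5p differed at 1 of 22 positions, by C13U. MiR-30c-5p differed from miR-30a-5p at 5 of 22 positions, by C13A, G14C, G18C, G19U and A20C. MiR-30c-5p is the product of both Mir30c-1 and Mir30c-2, and it was found whole in each of these hairpins.

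The 3p strands available, those of Mir30a, Mir30e, Mir30c-1 and Mir30c-2, fell into 2 seed groups. They separated Mir30c-1 from Mir30c-2, which share a 5p product.
miR-30a-3p: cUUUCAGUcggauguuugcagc
miR-30e-3p: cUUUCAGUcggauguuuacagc
miR-30c-1-3p: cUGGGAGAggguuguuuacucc
miR-30c-2-3p: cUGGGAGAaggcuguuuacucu
MiR-30a-3p and miR-30e-3p differed at 1 of 22 positions, by G18A. MiR-30c-1-3p and miR-30c-2-3p differed at 3 of 22 positions, by G9A, U12C and C22U. The sequence listed for Mir30f, the gene annotated on the strand opposite Mir30e, is the following.
miR-30f: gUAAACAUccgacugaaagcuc
It shared a run of 19 bases with the reverse complement of miR-30e-3p. Its bases 2 to 8 did not carry the family's 5p seed. However, it also shared a run of 10 bases with miR-30a-5p, which holds the letters of that seed 1 base nearer the 5′ end.

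Hairpins were also compared over their full length, since the deposited tables count only reads that fit a single position of the genome. The longest run that Mir30c-1 and Mir30c-2 shared was 28 bases.
shared run of Mir30c-1 and Mir30c-2: uguaaacauccuacacucucagcuguga
That run holds the whole of miR-30c-5p, 23 bases, and a read lying inside it fits both genes. The next longest run of either gene with any other of the 1004 hairpins in the table was 12 bases. Mir30a and Mir30e shared at most 18 bases, in the 3p arm, which is shorter than their mature products of 22 bases. A shorter read lying inside those bases would still fit both genes. No other hairpin in the table shared 20 bases with Mir30a or Mir30e. Mir30b and Mir30d had no hairpin there, so their overlap with these genes and with each other was not examined. The counts of Mir30c-1 and Mir30c-2 hold only reads not confined to their shared run, such as 3p reads, and the levels of these genes are uncertain. Each table gives 1 count per gene, so 5p and 3p reads of a gene could not be separated.

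The genes lie in 3 loci, each with a pair of members on the same strand. Mir30a is at chromosome 1, 23272269 to 23272339, and overlaps no other annotated gene, while Mir30c-2 follows at 23291701 to 23291784 in an exon of the long noncoding RNA gene Gm27028, with 19361 bases between them. Mir30e, at chromosome 4, 120772606 to 120772697, and Mir30c-1, at 120769534 to 120769622, both lie in introns of Nfyc, which encodes a subunit of the transcription factor NF-Y, and 2983 bases separate them. Mir30d, at chromosome 15, 68341208 to 68341289, overlaps exons of the transcripts Gm37296 and Gm20732, and Mir30b, at 68337415 to 68337510, an exon of Gm26621. The distance between Mir30d and Mir30b is 3697 bases. In each locus 1 gene had many counts and the other few, as the values below show. For Mir30c-1 and Mir30c-2 the counts leave out reads confined to their shared run, so these genes cannot be called low from them.

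Depth was similar in both libraries. Sense counts on microRNA genes came to 3172235 in replicate 1 and 3671915 in replicate 2. Levels are given as counts per 1000000 of these (CPM). Reads at several positions made up 32.4% and 33.3% of all reads in the tables and entered no gene. The limit set by a count of 0 was 0.946 CPM for replicate 1 and 0.817 for replicate 2. No molecular identifiers are mentioned in the sources used here, so these limits and all intervals below cover counting error only. The tissue label was checked with marker microRNAs. Neuronal genes summed to 14345 and 13468 CPM and neural progenitor genes to 8060 and 7497 CPM, against 43.5 and 35.9 CPM for the liver gene Mir122. Within the neuronal list, Mir137 had 30433 and 34225 counts, but Mir124a-1 had 21 and 23 and Mir124a-2 had 4 and 13. Sensory genes summed to 2109 and 15050 CPM and the endothelial gene Mir126a had 8443 and 17271 CPM. In replicate 2 both exceeded the neuronal sum, so the check sets the neural lists apart from the liver gene only. The neural lists include gene copies such as Mir124a-1 and Mir124a-2, and reads that fit several copies are in none of these sums. How many such reads there were was not measured, so the sums give no order of the cell types. In a tissue made of many cell types, fewer cells of a type and less RNA per cell cannot be told apart.

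Mir30e was the most abundant member. It had 48138 counts in replicate 1 and 61487 in replicate 2, or 15175 and 16745 CPM (mean 15960 ± 1110, SD, n = 2). It ranked 10th among all genes of the table in each library. Mir30a followed with 22567 and 27557 counts, or 7114 and 7505 CPM (mean 7309 ± 276, SD, n = 2), at ranks 20 and 21. Mir30d had 15705 and 18599 counts, or 4951 and 5065 CPM (mean 5008 ± 80.9, SD, n = 2), at ranks 28 and 29. The libraries lay close together for all 3 genes, and replicate 2 was the higher in CPM each time.

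The other 3 genes had far lower counts. Mir30b had 249 counts in replicate 1 and 607 in replicate 2, or 78.5 and 165 CPM (mean 122 ± 61.4, SD, n = 2). Mir30c-1 had 84 and 161 counts, or 26.5 and 43.8 CPM (mean 35.2 ± 12.3, SD, n = 2). Mir30c-2 had 91 and 117 counts, or 28.7 and 31.9 CPM (mean 30.3 ± 2.25, SD, n = 2). Mir30b and Mir30c-1 were higher in CPM in replicate 2, while Mir30c-2 was nearly level. All of these values stood well above the limit that a count of 0 allows.

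**Figure D1:**
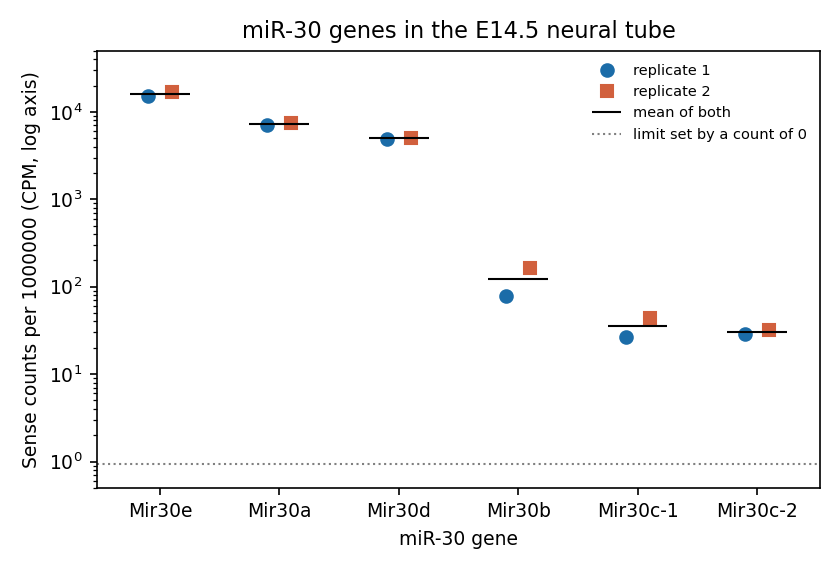
Level of each miR-30 gene in CPM (log axis) in replicate 1 (circles) and replicate 2 (squares), with the mean of both as a bar and the higher of the 2 limits set by a count of 0 as a dotted line. Mir30e, Mir30a and Mir30d lie between 4951 and 16745 CPM, and the other 3 genes at or below 165 CPM.

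The order of the members was the same in both libraries down to Mir30b. Mir30e exceeded Mir30a 2.13-fold in replicate 1 and 2.23-fold in replicate 2. Mir30a exceeded Mir30d 1.44-fold and 1.48-fold. The largest step of the order came next, with Mir30d above Mir30b 63.1-fold and 30.6-fold. The ranges of these neighbours over the libraries did not overlap. In the reads counted, Mir30b also lay above Mir30c-1, by 2.96-fold and 3.77-fold. Mir30c-1 and Mir30c-2 overlapped and changed places between the libraries, so they could not be ordered. A small RNA read was taken to cover its whole mature product, so counts were not divided by length for these comparisons. Read lengths were not examined. Per annotated base the order of the means was the same, from 173 CPM for Mir30e to 0.360 CPM for Mir30c-2.

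Summed over the 6 genes, the family held 2.74% of sense counts in replicate 1 (exact 95% interval 2.72 to 2.76) and 2.96% in replicate 2 (2.94 to 2.97), a mean of 2.85% ± 0.154 (SD, n = 2). Its make-up was nearly the same in both. Mir30e supplied 55.4% of the family's counts in replicate 1 (55.1 to 55.8) and 56.7% in replicate 2 (56.4 to 57.0). Mir30a supplied 26.0% and 25.4%, and Mir30d 18.1% and 17.1%. Together these 3 genes made up 99.5% and 99.2%. The remainder, Mir30b with both Mir30c genes, went from 0.488% to 0.815%. Reads at several positions are in none of these shares and not in the total. A family share that counts such reads, those of miR-30c-5p included, was not measured here.

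Comparing the libraries asks how far pups of different dams differed. Each dam gave a single library, so p-values reflect counting error and not the spread between litters. Library sizes were adjusted with TMM, edgeR's trimmed mean of M-values, and a gene was called at an adjusted p below 0.05 with at least a 2-fold difference (exact binomial test, Benjamini-Hochberg adjustment over 360 genes). None of the 6 miR-30 genes was called, where 10.3% of all genes tested were. At that share, 0 of 6 is not a result about the family. Without adjustment and fold minimum, 5 of 6 had an exact binomial p below 0.05, beside 59.2% of all genes. With an assumed coefficient of variation of 0.2, edgeR's exact test called 0 of 6, beside 5.83% of all genes. The median log2 ratio of replicate 1 over replicate 2 was 0.07 over the 6 members and -0.02 over all genes tested. Of the members, 2 of 6 had a ratio below 0, that is, higher in replicate 2, beside 51.4% of all genes. With scaling by total counts it was 6 of 6, beside 71.4%.

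Mir30b came nearest to the call. Its log2 ratio was -0.86 (95% interval -1.08 to -0.65), which is 1.82-fold higher in replicate 2 (exact binomial test, adjusted p = 9.5e-16). With scaling by total counts, which moves every log2 ratio by -0.21, Mir30b stood at -1.07 and was called, as were 11.9% of all genes. Mir30c-1 had a log2 ratio of -0.51 (-0.91 to -0.13), or 1.42-fold higher in replicate 2 (exact binomial test, adjusted p = 0.016). Mir30c-2 had 0.06 (-0.35 to 0.47), an interval that spans 0. The abundant genes had small ratios with narrow intervals, at 0.07 for Mir30e (0.05 to 0.09), 0.14 for Mir30a (0.11 to 0.16) and 0.18 for Mir30d (0.15 to 0.21). With scaling by total counts these 3 and Mir30c-2 changed sign, at -0.14, -0.077, -0.033 and -0.15, so no direction is given for them. The family's summed counts behaved likewise, with a log2 ratio of 0.10 (0.09 to 0.11) by TMM and -0.11 by total counts.

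**Figure D2:**
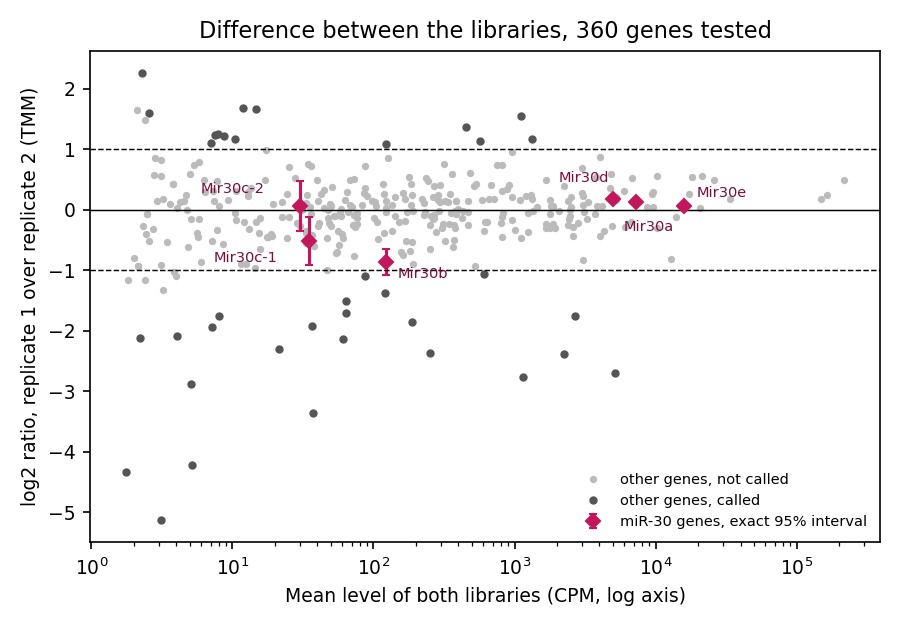
Log2 ratio of replicate 1 over replicate 2 against mean level (log axis) for the 360 genes tested, with miR-30 genes as diamonds with exact 95% intervals and dashed lines at a 2-fold difference. The 3 abundant miR-30 genes sit close to 0, and Mir30b lies just inside the lower line at -0.86.

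Shares within a locus do not depend on how the libraries were scaled. Of the counts on Mir30d and Mir30b together, Mir30b held 1.56% in replicate 1 (exact 95% interval 1.37 to 1.77) and 3.16% in replicate 2 (2.92 to 3.42). Of the counts on Mir30e and Mir30c-1, Mir30c-1 held 0.174% (0.139 to 0.216) and 0.261% (0.222 to 0.305). These intervals did not overlap between the libraries, and at both loci the gene with fewer counts held a larger part of the counts in replicate 2. The intervals cover counting error only, and 59.2% of all genes tested had an unadjusted exact binomial p below 0.05 between these libraries. Other gene pairs were not compared, so the shift is not a result about the family. Reads confined to the run that Mir30c-1 and Mir30c-2 share enter the count of neither gene. Of the counts on Mir30a and Mir30c-2, Mir30c-2 held 0.402% (0.323 to 0.493) and 0.423% (0.350 to 0.506), which overlap.

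**Figure D3:**
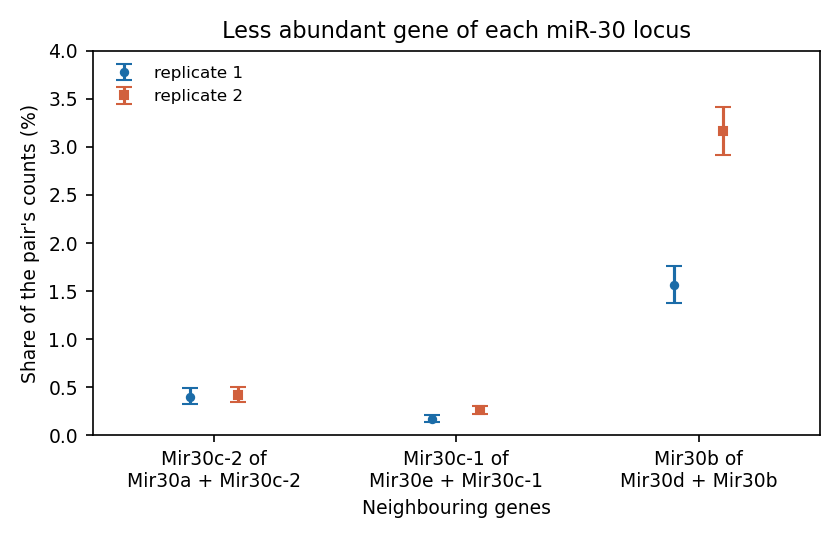
Share of the lower-count gene in the counts of each neighbouring pair, in percent, for replicate 1 (circles) and replicate 2 (squares), with exact 95% intervals. Reads confined to the run shared by Mir30c-1 and Mir30c-2 are not counted. Mir30b stands at 1.56% of its pair in replicate 1 and 3.16% in replicate 2, Mir30c-1 at 0.174% and 0.261%, and the intervals of Mir30c-2 overlap.

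Markers of other cell types also differed between the libraries. The 3 sensory genes Mir96, Mir182 and Mir183 together had 2109 CPM in replicate 1 against 15050 in replicate 2, and 3 of 3 were called higher in replicate 2, a direction in which 6.39% of all genes were called. The 7 mesenchymal genes summed to 3502 and 7561 CPM, with 5 of 6 tested called higher in replicate 2. The endothelial gene Mir126a had 8443 and 17271 CPM. Its log2 ratio was -0.82, which was not called, and -1.03 with scaling by total counts, which was. Leukocyte genes summed to 152 and 280 CPM, with 1 of 4 called higher in replicate 2. Epithelial genes summed to 407 and 508 CPM, with 1 of 5 tested called higher in replicate 1, as 3.89% of all genes were. Also called higher in replicate 1 were 2 of 8 neuronal genes tested and 1 of 3 erythroid genes, which summed to 94.3 and 113 CPM. The neuronal genes called were Mir128-1 and Mir128-2, at log2 ratios of 1.18 and 1.13. Scaling by total counts moves these ratios by -0.21, to below the 2-fold minimum. Among the sensory, mesenchymal, endothelial, leukocyte and epithelial genes, none was at 0 in both libraries. The part of these cell types in the higher Mir30b and Mir30c-1 of replicate 2 was not tested.

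No read lay on the strand opposite any of the 6 genes in either library. For the Mir30e hairpin this is the strand of Mir30f. For reads at a single position, a count of 0 leaves room for 0.946 and 0.817 CPM there, against 15175 and 16745 CPM on the Mir30e strand. Over all microRNA genes, reads on the other strand made up 1.26% and 1.49% of the counts.

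The 5p seed was searched for in all 1679 mature mouse sequences of the table, which has no entry for Mir30b or Mir30d. Of these sequences, 4 (0.238%) carried it at bases 2 to 8. Besides the 3 shown above, this was the 5p product of Mir384, a gene outside the naming rule that was found through its seed.
miR-384-5p: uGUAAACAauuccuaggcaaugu
Mir384 had 913 counts in replicate 1 and 1126 in replicate 2, or 288 and 307 CPM. That is more than Mir30b in each library and far below Mir30d. Its log2 ratio was 0.12 (-0.01 to 0.25), which was not called. The 3p seed of miR-30a and miR-30e was found in no other sequence searched, and the products of Mir30b and Mir30d were not among these. That of the miR-30c genes also stood in miR-6958-5p, whose gene had 13 and 16 counts.

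The miR-30 shares were set beside those of 3 further families with several gene copies. The miR-181 family held 1.87% and 2.09% of sense counts, the miR-26 family 0.827% and 0.926%, and the miR-29 family 0.0159% and 0.0175%. These shares hold only reads at a single position, so an order of the families by all their reads was not measured. Mir26a-1 and Mir26a-2, for example, share a run of 25 bases, as do Mir29b-1 and Mir29b-2. By these counts, the exact 95% intervals of the miR-30 shares lay above those of each of the 3 further families in both libraries. Their summed log2 ratios were 0.05 (0.03 to 0.07) for miR-181, 0.05 (0.03 to 0.07) for miR-26 and 0.08 (-0.09 to 0.25) for miR-29, and each fell below 0 with scaling by total counts, at -0.16, -0.16 and -0.13. None of their tested members was called by either test with TMM scaling. Mir181b-1, with 23 and 58 counts, had a log2 ratio of -0.89 (-1.68 to -0.19), next to -0.86 for Mir30b. Calls of these members with scaling by total counts are not given here. Without adjustment and fold minimum, 5 of 6 miR-181 genes, 1 of 3 miR-26 genes and 0 of 2 miR-29 genes had an exact binomial p below 0.05, beside the 59.2% of all genes given above.

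**Figure D4:**
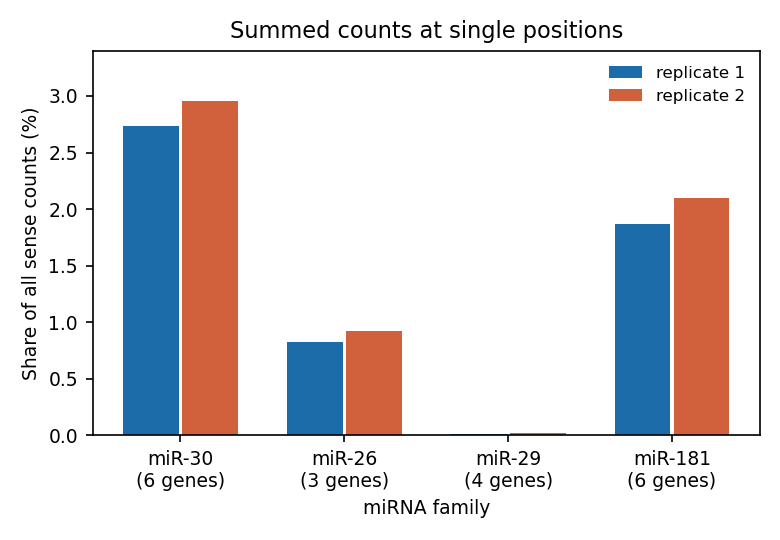
Share of all sense counts, in percent, held by the summed genes of the miR-30, miR-26, miR-29 and miR-181 families in replicate 1 and replicate 2. Only reads at a single position are counted. Bars start at 0, and the miR-30 bars stand at 2.74% and 2.96%, above those of miR-181 at 1.87% and 2.09%.

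Sequence overlap and level were read side by side for the genes of these families, with no test. In the miR-26 family, Mir26a-1 and Mir26a-2 share a run of 25 bases and had 7.32 ± 0.343 and 18.8 ± 5.70 CPM (SD, n = 2), and Mir26b, whose longest shared run was 11 bases, had 8739 ± 698 CPM. In the miR-29 family, Mir29b-1 and Mir29b-2 share 25 bases and had 1.04 and 1.02 CPM on average, while Mir29c, with 22 bases shared, had 98.5 ± 3.27 CPM and Mir29a, with only 14, had 66.5 ± 8.01 CPM. In the miR-181 family, Mir181a-1 and Mir181a-2 share 28 bases and had 3128 ± 374 and 530 ± 56.2 CPM. Mir181b-1 and Mir181b-2 share 26 bases and had 11.5 ± 6.04 and 1238 ± 347 CPM. Mir181d, with 13 bases shared, had 5257 ± 130 CPM, and the highest gene of that family was Mir181c, at 9663 ± 782 CPM. No hairpin was available for Mir181c, so its overlap with other genes was not computed. Genes sharing 22 bases or more had means from 1.02 to 3128 CPM.

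The genes closest to Mir30e in level, by Euclidean distance of log2(CPM + 1) over the 2 libraries, were Mir99b, Mir130a and Mir487b. Mir99b, of the miR-10 and miR-99 group, had 17633 and 17086 CPM (distance 0.219). Mir130a had 12378 and 15532 CPM (0.313) and Mir487b, of the imprinted locus on chromosome 12, 20070 and 15955 CPM (0.409). With 2 libraries this measure compares levels and cannot show a shared pattern.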

How the data were processed

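MicroRNA-seq libraries of total RNA from 2 neural tube samples were used. Per the notes deposited with each library, the tables derive from alignments to mm10 with annotation M4. They hold unnormalized read counts for each gene as deposited, on either strand, the sense strand and the other strand in 3 columns. Which aligner, trimming or filters were applied is not given in the sources used here. The 4 rows that name no gene stayed out of library sizes and tests. Unmapped reads were 11.5% and 11.8%, and reads on no gene's sense strand 2.75% and 3.01%.

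Symbols, positions and overlapping genes came from GENCODE M21 on GRCm38, the same assembly as mm10, and 1894 of 1973 identifiers matched. Genes with at least 10 sense counts in 1 library or more were tested with a two-sided exact binomial test on TMM-scaled library sizes (edgeR 4.0.16, R 4.3.3, scipy 1.17.1), with a prior count of 0.5 for ratios and Benjamini-Hochberg adjustment. Intervals are exact 95% binomial (Clopper-Pearson), and the limit of a count of 0 is 3 counts. The quasi-likelihood test of edgeR could not be fitted with 1 library per dam. DESeq2 1.42.0 supplied size factors for 1 alternative. Tables used Python 3.11.15, numpy 2.4.6 and pandas 2.3.3, and figures matplotlib 3.10.9.

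The members and lists were chosen with earlier results of these data known. Genes named were all members, the 3 genes closest in level to the highest member, the highest gene of each comparison family, and markers where a result turned on them. Other genes were named after their values were seen.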

Additional observations from a re-analysis of the deposited data

How the results depend on the processing

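The family's mean share was 1.498% over all reads of the tables and 6.03% with the 3 most abundant genes, Mir10b, Mir10a and Mir99a, left out of the total, against 2.85%. Leaving out 1 replicate gave 2.74% to 2.96%, and counting either strand 2.81%. The summed log2 ratio, 0.10, was -0.11 with scaling by total counts, and those of Mir30e, Mir30a, Mir30d and Mir30c-2 were -0.14, -0.077, -0.033 and -0.15; this scaling moves all ratios alike. Under the other scaling, strand, filter and dispersion settings it lay between 0.07 and 0.12. Of all genes, 37 were called, 14 higher in replicate 1 and 23 in replicate 2. The split was 8 and 35 with total counts. With a filter of 100 counts 21 were called among 282 tested, and 21 with edgeR's exact test at an assumed coefficient of variation of 0.2. No member was called in either. A family without Mir30f equals the one reported, since Mir30f had no row. No paired analysis was possible because there is 1 group. The intervals of Mir30c-1 and Mir30c-2, which had the fewest counts, are the widest of the members.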
